A study of Mus musculus with 8 samples.

Results

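Asns, Phgdh, Psat1, Psph, Shmt2, Mthfd2, Slc7a5, Slc3a2, Slc38a2 and Slc7a11 are 10 genes of amino acid uptake, asparagine and serine synthesis and the serine-fed folate cycle. They were chosen by symbol and make up 10 of the 46477 rows of the deposited expression table. Each symbol matched 1 row, and all 10 were among the 6917 rows with a mean of at least 1 FPKM (fragments mapped to a gene, scaled to its transcript length and to the size of the library) over the libraries. The cells were B16-F10, an established mouse melanoma line, and their RNA was sequenced after 24 h on extracellular matrix left by lysed and washed-off SMCs. Before lysis the SMCs had been given an siRNA for 72 h and then a medium for 72 h. The media were TCM, conditioned by B16-F10 tumour cells, and SFM, which the labels do not spell out. The siRNA treatments were siKLF4-siFN, siFN, siKLF4 and siNT, so the groups were TCM siKLF4-siFN, TCM siFN, TCM siKLF4, TCM siNT, SFM siKLF4-siFN, SFM siFN, SFM siKLF4 and SFM siNT. Each of the 8 conditions was 1 library. The siRNAs went to the SMCs and not to the sequenced cells, so Klf4 or Fn1 in these libraries does not check a knockdown.

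Phgdh, Psat1 and Psph turn a glycolytic intermediate into serine in 3 successive reactions. Shmt2 then moves the serine side chain carbon onto folate in mitochondria, and Mthfd2 oxidises the folate product. Asns makes asparagine from aspartate and glutamine. Slc7a5 imports large neutral amino acids and Slc7a11 imports cystine, and each needs Slc3a2 as its heavy chain partner at the cell surface, while Slc38a2 takes up small neutral amino acids with sodium. Many of these genes are textbook targets of ATF4, the transcription factor made when cells lack amino acids or stress the endoplasmic reticulum. ATF4 binds with C/EBP family partners to composite promoter elements, of which those of Asns and Slc7a11 are well described.

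Letters of such an element were found in the promoters of these same 2 genes, which is why they are printed here. Those searched were TGATGNAA on both strands, in RefSeq promoters running from 250 bases before to 50 bases after each start (build GRCm38.p6). This form of the element is known from Asns, so the match in Asns was fixed in advance. The elements of Slc7a11 are also well described, so its match is no independent find either. Promoters were listed for 9 of the 10 genes, 10 in all since Psat1 had a pair. The letters were present in 2 of those 10 promoters, that of Asns included, and in 1304 of all 32851 promoters of that length, or 3.97%. In the lines below, on the minus strand, capitals mark the matches, and up to 30 bases stand on each side without passing the start.

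Slc7a11, chr3:50443623-50443709: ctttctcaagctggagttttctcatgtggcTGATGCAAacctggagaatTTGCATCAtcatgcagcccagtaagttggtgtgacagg

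Asns, chr6:7693210-7693262: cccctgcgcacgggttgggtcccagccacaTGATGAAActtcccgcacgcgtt

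In Slc7a11 the first bases of the matches lie 66 and 47 bases upstream of the start, and the matches face each other on opposite strands. In Asns the single match begins 23 bases upstream of its RefSeq start. That start lies inside the GENCODE span of Asns, which runs to base 7693254, and so does the match. RefSeq starts can likewise differ from the gene spans given below, which come from GENCODE. A match is a description of letters, and its absence from the other windows says nothing about binding there.

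Depth was not given in the table; from the smallest steps of the low values it was estimated at 11600000 reads (SFM siKLF4) to 23000000 reads (SFM siNT). These estimates are approximate, since 44.7% to 48.8% of the low values fell within 0.05 reads of a whole number. A mean of at least 1 FPKM was reached by 11 of 14 melanocyte markers (summed level 494 to 761 FPKM over the libraries) and by 3 of 16 smooth muscle markers (Cald1, Des and Mcam; 21.6 to 36.2 FPKM), among which Acta2, Myocd and Rgs5 were listed at 0 in every library. It was reached by 0 of 12 fibroblast markers (0.613 to 1.03 FPKM), 1 of 12 endothelial markers (Eng; 4.19 to 6.47 FPKM) and 1 of 12 leukocyte markers (Cd68; 1.97 to 4.59 FPKM). Some libraries stood apart before any of the 10 genes was considered. The summed FPKM of 26 mitosis genes was 33.0 in TCM siNT, 12.6 in SFM siKLF4-siFN and 13.3 in SFM siFN, against 105 to 113 in the other 5 libraries. TCM siKLF4-siFN and TCM siFN were the closest of the 28 pairs of libraries, with a median absolute difference of 0.0644 on the log2(FPKM + 1) scale.

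The 10 genes fell into high, middle and low levels, read in FPKM, which is per length. Slc38a2 (mean 50.8 FPKM), Shmt2 (50.1), Slc3a2 (37.3), Asns (25.2) and Mthfd2 (20.5) led, followed by Slc7a5 (12.8), Phgdh (8.64), Psph (6.80) and Psat1 (6.59). Slc7a11 was lowest at 1.09 FPKM. For 9 of the genes 69.6% to 94.3% of the tested rows had a lower mean, and for Slc7a11 4.13% did. Counting error, from the approximate depths, came to 0.935% to 6.85% of a value for those 9 and 4.93% to 13.7% for Slc7a11. It covers counting only.

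Slc3a2 (chr19:8706882-8723369, minus strand, mm10), the shared heavy chain, had 27.9 FPKM in TCM siKLF4-siFN, 29.7 in TCM siFN, 36.8 in TCM siKLF4 and 45.0 in TCM siNT. On SFM matrix it had 51.9 FPKM with siKLF4-siFN, 45.4 with siFN, 29.1 with siKLF4 and 32.3 with siNT. The order of the siRNA treatments was thus close to inverted between media. The SFM libraries with siFN were the 2 highest, with TCM siNT just under them, and TCM siKLF4-siFN, SFM siKLF4 and TCM siFN were the lowest.

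Its light chain Slc7a5 (chr8:121881150-121907694) had 10.6 FPKM in TCM siKLF4-siFN, 10.3 in TCM siFN, 12.3 in TCM siKLF4 and 14.1 in TCM siNT. The SFM libraries had 18.6 FPKM with siKLF4-siFN, 13.5 with siFN, 11.8 with siKLF4 and 11.4 with siNT. SFM siKLF4-siFN was the highest library, TCM siNT ranked above SFM siFN, and the TCM libraries with siFN were the 2 lowest. Within each library the level of Slc3a2 was 2.46 to 3.38 times that of Slc7a5.

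Asns (chr6:7675169-7693254) had 20.3 FPKM in TCM siKLF4-siFN, 19.9 in TCM siFN, 24.4 in TCM siKLF4 and 26.9 in TCM siNT. With SFM the values were 34.8 FPKM under siKLF4-siFN, 28.5 under siFN, 22.1 under siKLF4 and 24.4 under siNT. Here the SFM libraries with siFN were the highest and the TCM libraries with siFN the lowest. The highest level was 1.75 times the lowest.

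Phgdh (chr3:98313170-98339990), which makes the first and committed step of serine synthesis, had 7.03 FPKM in TCM siKLF4-siFN, 6.91 in TCM siFN, 8.88 in TCM siKLF4 and 8.56 in TCM siNT. Its SFM values were 12.2 FPKM with siKLF4-siFN, 9.69 with siFN, 7.38 with siKLF4 and 8.42 with siNT. Phgdh therefore ordered the libraries with siFN as Asns did. The other enzymes of serine synthesis varied less.

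Psat1 (chr19:15904678-15947337), the transaminase of the second step, had 6.27, 6.21, 6.48 and 6.42 FPKM in TCM siKLF4-siFN, TCM siFN, TCM siKLF4 and TCM siNT. In SFM siKLF4-siFN, SFM siFN, SFM siKLF4 and SFM siNT it had 7.64, 6.47, 6.40 and 6.81 FPKM. Its highest level was 1.23 times its lowest, the narrowest range of the 10 genes, and 7 of the 8 libraries lay between 6.21 and 6.81 FPKM.

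Psph (chr5:129765558-129787449), the phosphatase that releases serine, had 6.59, 6.03, 6.71 and 7.97 FPKM in TCM siKLF4-siFN, TCM siFN, TCM siKLF4 and TCM siNT. In SFM siKLF4-siFN, SFM siFN, SFM siKLF4 and SFM siNT it had 7.29, 6.92, 6.30 and 6.60 FPKM. It was the one gene of the 10 that peaked in TCM siNT. Psph overlaps Cct6a on the opposite strand (mean 3.56 FPKM), and whether strand was used in counting is not given in the sources used here, so its values are uncertain.

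Shmt2 (chr10:127517123-127522444) had 43.0, 45.0, 54.8 and 55.3 FPKM in TCM siKLF4-siFN, TCM siFN, TCM siKLF4 and TCM siNT. In SFM siKLF4-siFN, SFM siFN, SFM siKLF4 and SFM siNT it had 63.9, 50.4, 44.4 and 44.2 FPKM. On TCM matrix the pair of libraries with siFN lay below the pair without it, and on SFM matrix it lay above.

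Mthfd2 (chr6:83305691-83325908) had 19.6, 19.1, 21.6 and 20.9 FPKM in TCM siKLF4-siFN, TCM siFN, TCM siKLF4 and TCM siNT. In SFM siKLF4-siFN, SFM siFN, SFM siKLF4 and SFM siNT it had 25.5, 20.6, 18.5 and 18.5 FPKM. It showed the same arrangement as Shmt2 in a narrower range, with SFM siKLF4-siFN alone above 22 FPKM and the other 7 libraries within 18.5 to 21.6 FPKM.

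Slc38a2 (chr15:96687392-96699730) had 50.5, 50.2, 49.4 and 54.1 FPKM in TCM siKLF4-siFN, TCM siFN, TCM siKLF4 and TCM siNT. In SFM siKLF4-siFN, SFM siFN, SFM siKLF4 and SFM siNT it had 37.1, 52.9, 55.9 and 56.3 FPKM. The library that was highest for most of the genes, SFM siKLF4-siFN, was its lowest, and the other 7 libraries lay between 49.4 and 56.3 FPKM.

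Slc7a11 (chr3:49892526-50443614) had 1.23, 1.24, 0.746 and 1.15 FPKM in TCM siKLF4-siFN, TCM siFN, TCM siKLF4 and TCM siNT. In SFM siKLF4-siFN, SFM siFN, SFM siKLF4 and SFM siNT it had 0.296, 1.29, 1.49 and 1.29 FPKM. It too was lowest in SFM siKLF4-siFN, and it had the widest range of the 10, the highest level being 5.03 times the lowest.

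**Figure D1:**
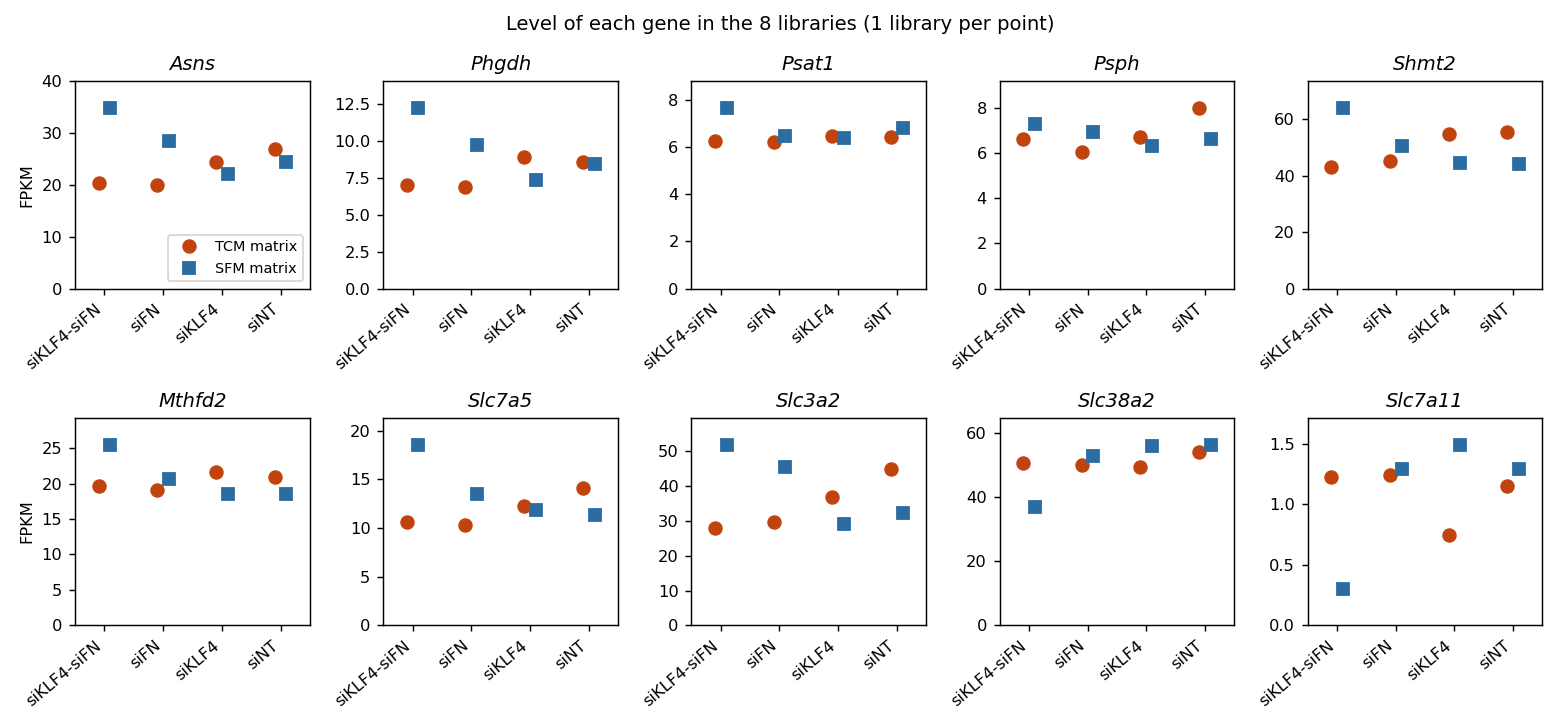
FPKM of the 10 genes in each of the 8 libraries, 1 library per condition and so without error bars. SFM siKLF4-siFN is the highest library for 7 genes and the lowest for Slc38a2 (37.1 FPKM) and Slc7a11 (0.296 FPKM).

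A few libraries held most of the high values. In TCM siNT 9 of the genes were above their own mean over the 8 libraries, as were 8 in SFM siKLF4-siFN and 9 in SFM siFN. In TCM siFN 1 was, and in TCM siKLF4-siFN 2 were; TCM siFN was the lowest library for 5 genes. These 3 high libraries are also the 3 with low summed mitosis FPKM given above, and the part of the cells' cycling in the levels of the 10 genes was not tested. The share of all rows above their own mean was not taken in these libraries. The counts are therefore not shown to be particular to the 10 genes.

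**Figure D2:**
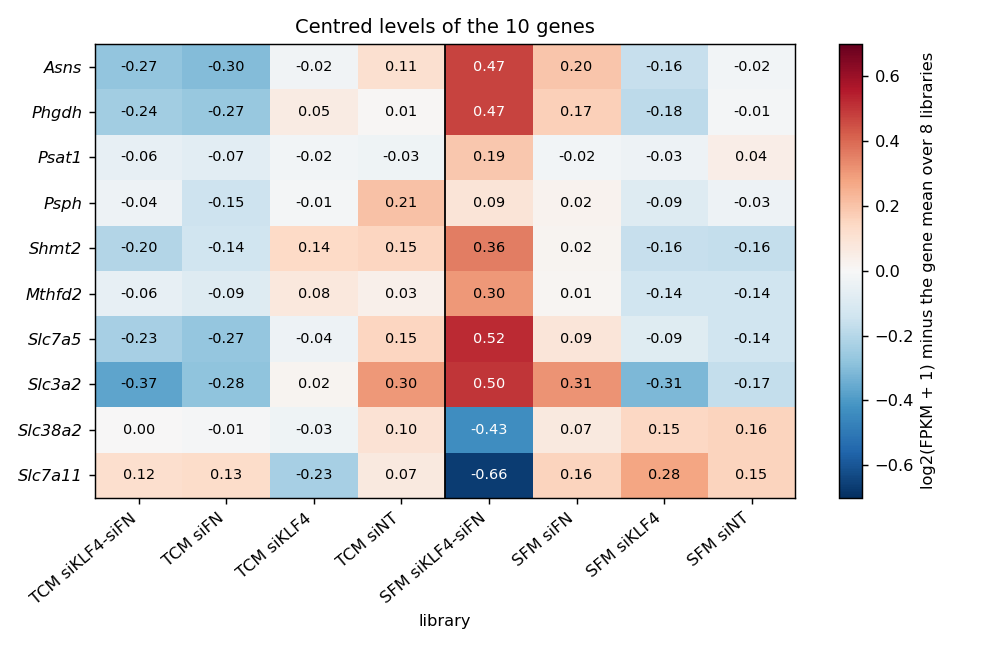
Difference of log2(FPKM + 1) from each gene's mean over the 8 libraries, by library. Slc3a2 runs from -0.37 in TCM siKLF4-siFN to 0.50 in SFM siKLF4-siFN, and Slc38a2 (-0.43) and Slc7a11 (-0.66) go the other way in SFM siKLF4-siFN.

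With siFN, the matrix made in TCM went with lower Slc3a2, Asns and Phgdh than the matrix made in SFM. Over the 4 libraries with siFN (siKLF4-siFN and siFN in each medium), Slc3a2 fell by 0.73 ± 0.17 (SE) on the log2(FPKM + 1) scale (adjusted p = 0.0373, limma with Benjamini-Hochberg adjustment over all rows tested). Asns fell by 0.62 ± 0.16 (adjusted p = 0.0481) and Phgdh fell by 0.58 ± 0.16 (adjusted p = 0.0491). These 3 calls downward, with 0 upward, stood against 1172 calls among the 6917 rows, or 16.9%, with 8.53% of rows called downward and 8.41% upward.

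The other 7 genes did not pass. Slc7a5 differed by -0.56 ± 0.18 (adjusted p = 0.0718), Shmt2 by -0.36 ± 0.16 (adjusted p = 0.154) and Mthfd2 by -0.23 ± 0.15 (adjusted p = 0.285). Psat1 and Psph each differed by -0.15, Slc38a2 by 0.18 and Slc7a11 by 0.38, with adjusted p from 0.243 to 0.486. For 8 of the 10 genes both TCM libraries with siFN lay below both SFM libraries with siFN, and for 0 the reverse held, where 35.4% of all rows tested lay below in this way and 33.9% above. Slc38a2 and Slc7a11 overlapped. The median of the 10 differences was -0.30, beside -0.01 over all rows.

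Without siFN (siKLF4 and siNT in each medium) no gene passed between the media. In limma 0 of 6917 rows passed (0.0%), 627 rows had an unadjusted p under 0.05, and of the 10 genes 1 did. That gene was Slc3a2, at 0.40 ± 0.17 (adjusted p = 0.543), and Slc7a11 had the lowest difference at -0.30 ± 0.22 (adjusted p = 0.645). Of the 10 differences 7 were above 0, with a median of 0.15, where 55.4% of all rows were above 0.

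The difference between those media differences was tested by the media by siFN interaction, and Slc3a2 alone of the 10 passed. Its TCM minus SFM difference was lower by 1.13 ± 0.24 with siFN than without (adjusted p = 0.0444, limma). In all, 496 of 6917 rows passed (7.17%), 3.34% of rows downward and 3.83% upward. Asns (-0.76 ± 0.23, adjusted p = 0.0845), Phgdh (-0.71 ± 0.22, adjusted p = 0.0861), Slc7a5 (-0.73 ± 0.25, adjusted p = 0.104) and Shmt2 (-0.67 ± 0.23, adjusted p = 0.105) had unadjusted p under 0.05 and did not pass after adjustment.

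Mthfd2 had -0.42 ± 0.21 (adjusted p = 0.201), Psph -0.31 ± 0.20 (adjusted p = 0.303) and Psat1 -0.12 ± 0.19 (adjusted p = 0.671) in this interaction. Above 0 were Slc38a2 at 0.30 ± 0.25 (adjusted p = 0.432) and Slc7a11 at 0.68 ± 0.31 (adjusted p = 0.175). The 5 genes with an unadjusted p under 0.05 stood beside 33.6% of all rows at that level, and the median of the 10 values was -0.55 beside -0.06 over all rows.

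**Figure D3:**
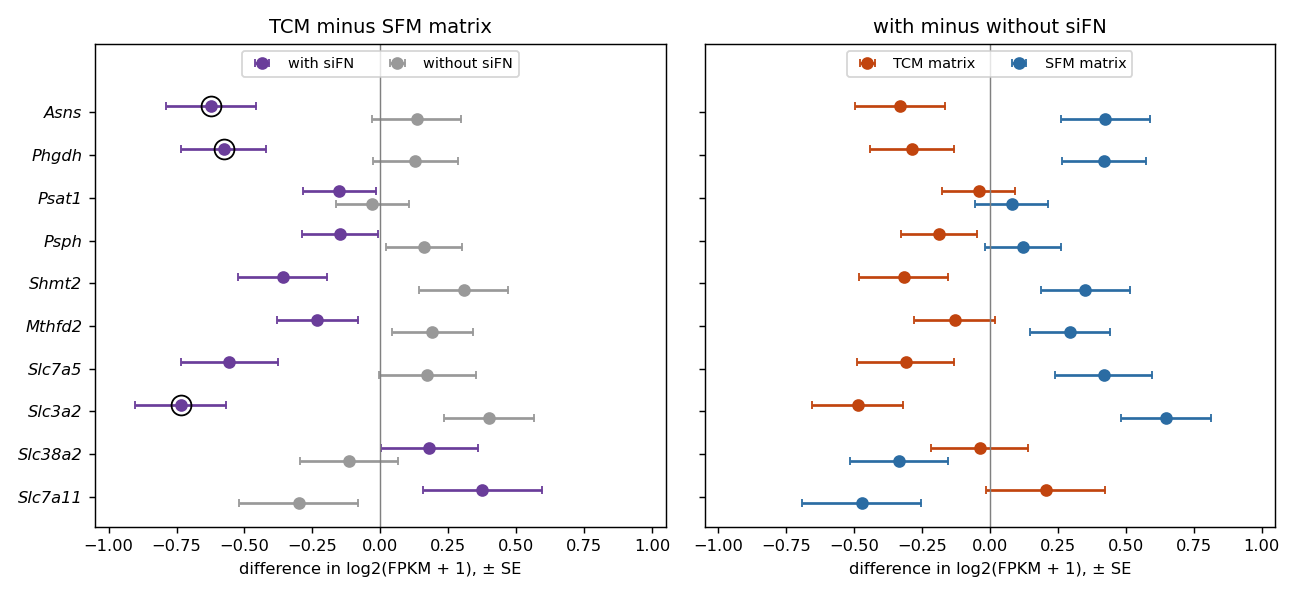
Differences in log2(FPKM + 1) with their SE for the 10 genes, TCM minus SFM matrix with and without siFN in one panel, and with minus without siFN on TCM and on SFM matrix in the other. Rings mark an adjusted p under 0.05, reached by Slc3a2 (-0.73), Asns (-0.62) and Phgdh (-0.58) between the media with siFN.

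Read by siRNA, siFN against no siFN went opposite ways on the 2 matrices for most of the genes, and none of the 10 passed on either. On TCM matrix 0 of 6917 rows passed in limma (0.0%), and 391 had an unadjusted p under 0.05. The 10 genes ran from -0.49 for Slc3a2 to 0.20 for Slc7a11. Below 0 were 9 of them, or 8 under upper quartile scaling, where 41.9% of all rows were above 0. On SFM matrix Slc3a2 differed by 0.65 ± 0.17 (adjusted p = 0.0642), and Asns, Phgdh and Slc7a5 each by 0.42 with adjusted p from 0.119 to 0.154. Of the 10 genes 0 passed in limma, where 479 rows passed (6.92%, made up of 3.17% upward and 3.76% downward). An unadjusted p under 0.05 was found for 3 of the 10 genes and for 33.5% of all rows. Above 0 were 8 of the 10 values, with a median of 0.32, and 50.7% of all rows.

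The calls for Slc3a2, Asns and Phgdh were lost in most fits that left out a library, whether or not the estimate moved. Without SFM siNT the TCM minus SFM difference of Slc3a2 with siFN stayed at -0.73. Without TCM siFN its interaction was -1.14, against -1.13 with all libraries. A fit without a library also has fewer residual degrees of freedom, and the part of this in the lost calls was not tested. The interaction call of Slc3a2 held in 1 of the 8 fits that left out a library, the one without SFM siFN (-1.31, adjusted p = 0.0159); without SFM siKLF4-siFN it was -0.95 (adjusted p = 0.0916), without TCM siNT -0.999 (adjusted p = 0.169) and in the other 5 the adjusted p was 0.0530 to 0.162. The TCM minus SFM calls with siFN of Slc3a2, Asns and Phgdh likewise held only without SFM siFN, and without SFM siKLF4-siFN the differences were -0.55, -0.44 and -0.41. Libraries were not replicated within a condition, so every p rests on how far the 8 libraries depart from the fitted terms, not on a spread between replicates. In bulk RNA, fewer cells of a type and less RNA per cell cannot be told apart.

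Averaged over the other factors, neither medium nor siRNA moved any of the 10 genes past the test. For the medium the differences ran from -0.24 ± 0.19 for Asns to 0.04 ± 0.20 for Slc7a11 (adjusted p from 0.802 to 0.990). For siKLF4 they ran from -0.25 ± 0.20 for Slc7a11 to 0.09 ± 0.14 for Mthfd2, and for siFN from -0.19 ± 0.15 for Slc38a2 to 0.08 ± 0.14 for Mthfd2. Each of these limma comparisons called 0 of 6917 rows (0.0%), with 464 rows for the medium, 84 for siKLF4 and 84 for siFN at an unadjusted p under 0.05, and 0 of the 10 genes among them. Their model leaves out the media by siFN term, so that interaction counts as spread in the SE.

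siKLF4 also gave no call through its interactions. In the media by siKLF4 interaction the genes ran from -0.32 ± 0.41 for Slc7a5 to 0.20 ± 0.32 for Slc38a2. The siKLF4 by siFN interaction ran from -0.33 ± 0.42 for Slc7a11 to 0.31 ± 0.41 for Slc7a5. Both called 0 rows (0.0%), 78 and 40 rows having an unadjusted p under 0.05. These models leave out the media by siFN term, so that interaction counts as spread in their SE. Slc3a2 had an SE of 0.55 and 0.54 here, against 0.24 in the media by siFN model. Differences of this size could not be separated from a spread that holds that interaction.

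Set side by side, single libraries gave no change of 1 or more on the log2(FPKM + 1) scale in any of the 10 genes. In TCM siNT against SFM siNT 2.43% of rows passed that size, and Slc3a2 had 45.0 against 32.3 FPKM. Higher in TCM siNT were 7 of the 10 genes and 48.4% of all rows. Rescaling to TPM shifted the median of all rows in this pair by 0.13 and made it 9 genes. TCM siKLF4 against SFM siKLF4 (1.32% of rows) had 8 higher genes, where 64.4% of all rows were higher. It was 7 genes after rescaling to TPM and 5 under upper quartile scaling, so the direction there depends on the scaling.

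With siFN the pairs were wider. TCM siFN was lower than SFM siFN for all 10 genes, though after rescaling to TPM Psat1 and Slc7a11 were higher; Slc3a2 stood at 0.653, Asns at 0.698 and Phgdh at 0.713 of its SFM siFN level. Over all rows 5.05% passed the size of 1 in that pair and 48.2% were lower. TCM siKLF4-siFN was lower than SFM siKLF4-siFN for 8 genes under each scaling, where 10.2% of rows passed that size and 54.0% were lower. Slc38a2 and Slc7a11 were the exceptions, Slc7a11 having 4.14 times its SFM siKLF4-siFN level.

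Against siNT on the same matrix, siKLF4-siFN had 9 lower genes on TCM, with a median of -0.25 (2.04% of rows passed a size of 1). Of all rows 51.5% were lower there. On SFM it had 8 higher genes, with a median of 0.46 (8.62%), and 51.6% of all rows were higher. siFN alone had 9 lower genes on TCM (1.86%), where 51.8% of all rows were lower. On SFM it had 8 higher genes (3.66%), or 9 after rescaling to TPM, where 46.3% of all rows were higher. Slc7a11 is among those 8, with 1.29 FPKM in both libraries. These pairs share their siNT library. siKLF4 alone had 7 lower genes on TCM (1.78%), or 10 under upper quartile scaling, where 43.2% of all rows were lower. On SFM it had 6 lower genes (0.723%), and 56.2% of all rows were lower. Rescaling to TPM shifted all rows of that SFM pair by 0.18 and left none of the 10 genes lower.

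Slc38a2 and Slc7a11, which went against the other 8 genes in SFM siKLF4-siFN, have the longest exon lengths of the 10, at 8838 and 13922 bases against 2486 to 4329 for the rest. Protein-coding rows were therefore split by exon length, and each class's median difference from its rows' own means was taken. In SFM siKLF4-siFN this was 0.09 for the 816 rows of up to 2 kb and -0.15 for the 677 rows over 8 kb, while Slc38a2 was at -0.43 and Slc7a11 at -0.66. In TCM siFN the same classes had -0.05 and 0.06. The part of transcript length in the levels of these 2 transporters was not tested.

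**Figure D4:**
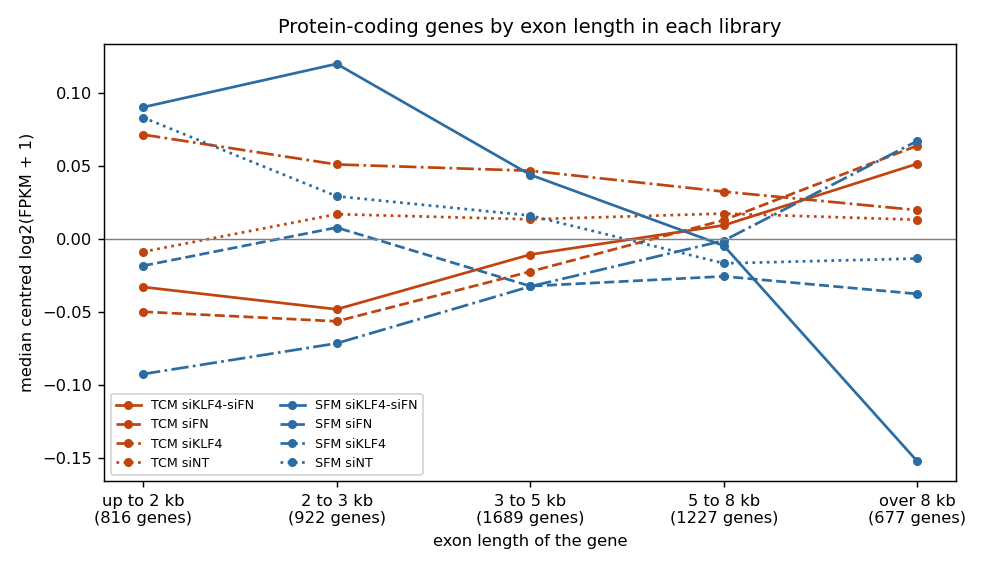
Median difference of log2(FPKM + 1) from the row's mean over the 8 libraries, by class of exon length, for protein-coding rows in each library. In SFM siKLF4-siFN the median is 0.12 at 2 to 3 kb and -0.15 over 8 kb.

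Genes around these pathways were listed by role, and their calls in the media by siFN interaction stand beside the 7.17% of all rows called (3.34% downward and 3.83% upward). Of 10 tested other amino acid transporters, 2 passed downward and 1 upward, and the list's median was -0.59. Slc1a5, a neutral amino acid exchanger that carries glutamine, had 6.49, 5.51, 6.56 and 8.10 FPKM in TCM siKLF4-siFN, TCM siFN, TCM siKLF4 and TCM siNT, against 14.3, 17.0, 6.18 and 7.11 FPKM in SFM siKLF4-siFN, SFM siFN, SFM siKLF4 and SFM siNT (interaction -1.37 ± 0.23, adjusted p = 0.0385, limma). The SFM libraries with siFN thus stood above the other 6. The glycine transporter Slc6a9 had -1.21 ± 0.18 (adjusted p = 0.0375), and the taurine transporter Slc6a6 passed the other way at 0.96 ± 0.22 (adjusted p = 0.0489). Slc7a1, which carries cationic amino acids, did not pass at -0.78 ± 0.19 (adjusted p = 0.0583).

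Among 15 tested enzymes of other amino acid synthesis, 2 passed, both downward, and the median was -0.46. Pycr1, which makes proline, had 1.77, 1.44, 2.29 and 3.37 FPKM in TCM siKLF4-siFN, TCM siFN, TCM siKLF4 and TCM siNT, against 4.39, 5.20, 1.74 and 1.97 FPKM in SFM siKLF4-siFN, SFM siFN, SFM siKLF4 and SFM siNT (-1.56 ± 0.22, adjusted p = 0.0375). Cth, which makes cysteine, had -0.79 ± 0.18 (adjusted p = 0.0480). Got1 (-0.87 ± 0.20, adjusted p = 0.0522) and Bcat1 (-0.81 ± 0.19, adjusted p = 0.0544), transaminases of aspartate and of branched-chain amino acids, did not pass.

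Of 9 tested folate and one-carbon genes 1 passed, downward, a count near the share of all rows, with a median of -0.18. It was the purine synthesis gene Gart, at -0.84 ± 0.16 (adjusted p = 0.0429). Mat2a, which makes S-adenosylmethionine, had -1.38 ± 0.34 (adjusted p = 0.0582), the purine synthesis gene Atic -0.71 ± 0.18 (adjusted p = 0.0617) and the thymidylate synthase gene Tyms 0.91 ± 0.27 (adjusted p = 0.0769).

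Of 16 tested genes of ATF4, its regulators and its other targets, 2 passed, both downward, and the median was -0.49. Trib3, a pseudokinase induced through ATF4, had 29.2, 30.1, 37.0 and 47.6 FPKM in TCM siKLF4-siFN, TCM siFN, TCM siKLF4 and TCM siNT, against 63.1, 62.2, 29.7 and 36.8 FPKM in SFM siKLF4-siFN, SFM siFN, SFM siKLF4 and SFM siNT (-1.39 ± 0.23, adjusted p = 0.0385). Ppp1r15a, a phosphatase subunit that restores translation after stress, had -1.92 ± 0.28 (adjusted p = 0.0375). Atf4 itself had 312, 297, 327 and 373 FPKM in TCM siKLF4-siFN, TCM siFN, TCM siKLF4 and TCM siNT, against 369, 319, 300.0 and 295 FPKM in SFM siKLF4-siFN, SFM siFN, SFM siKLF4 and SFM siNT, and did not pass (-0.40 ± 0.22, adjusted p = 0.236).

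The levels of Atf4 RNA in the TCM and SFM libraries with siFN were thus closer together than those of Trib3. Ddit3, another stress transcription factor, had -0.40 ± 0.22 (adjusted p = 0.242). Cebpb, a C/EBP partner, had -0.998 ± 0.24 (adjusted p = 0.0530) and the translation repressor gene Eif4ebp1 -0.95 ± 0.25 (adjusted p = 0.0652), and neither passed.

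Of 15 tested cysteine, glutathione and NRF2 pathway genes, 1 passed, downward, again near the share of all rows, with a median of -0.28. Hmox1, which breaks down heme, had 92.7, 93.8, 111 and 165 FPKM in TCM siKLF4-siFN, TCM siFN, TCM siKLF4 and TCM siNT, against 245, 253, 93.4 and 113 FPKM in SFM siKLF4-siFN, SFM siFN, SFM siKLF4 and SFM siNT (-1.80 ± 0.26, adjusted p = 0.0375). Srxn1, a sulfiredoxin, had -1.29 ± 0.34 (adjusted p = 0.0661), Chac1, which degrades glutathione, -0.96 ± 0.26 (adjusted p = 0.0662), and Cd44, a surface receptor that binds the Slc7a11 protein, 0.71 ± 0.17 (adjusted p = 0.0549). Beside these lists, 17 of 18 tested mitosis genes passed upward, with a median of 2.36. Whether the movements of the lists are linked was not tested.

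**Figure D5:**
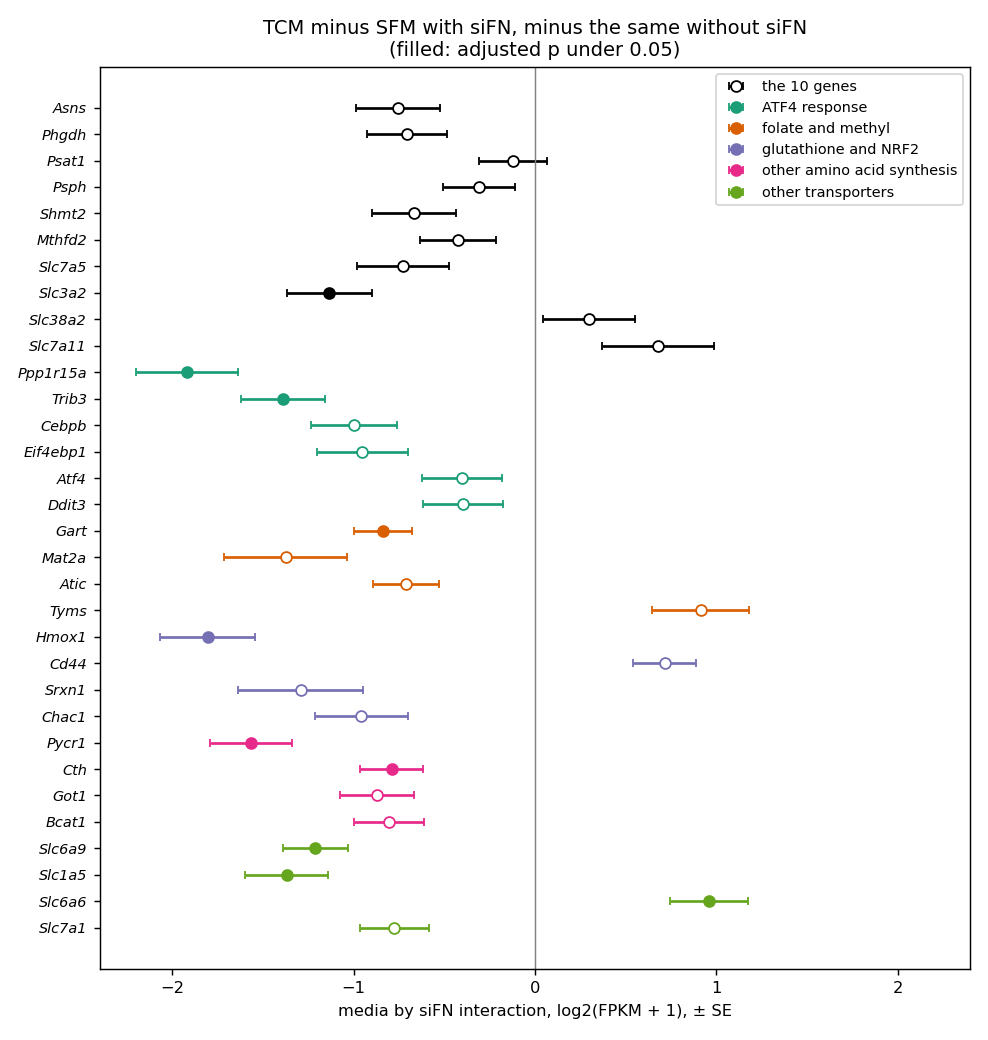
Media by siFN interaction on the log2(FPKM + 1) scale with its SE for the 10 genes and for the named genes of each list, filled where the adjusted p was under 0.05. Slc3a2 (-1.13) is the one filled point among the 10 genes, and Slc6a6 (0.96) is the one filled point above 0.

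The TCM minus SFM difference with siFN gave more calls in those lists than the interaction did. It called 5 of the other transporters downward and 1 upward, 4 and 1 of the other amino acid synthesis genes, 2 and 1 of the folate genes, 5 and 0 of the ATF4 genes and 3 and 1 of the NRF2 genes. Chac1 stands in both the ATF4 and the NRF2 list. These counts stand beside 16.9% of all rows called in either direction. The upward folate call was Tyms, at 1.46 FPKM in TCM siKLF4-siFN and 1.57 in TCM siFN. It had 0.404 FPKM in SFM siKLF4-siFN and 0.388 in SFM siFN. Tyms met the filter of a mean of at least 1 FPKM only through libraries where it was high, so this call is not free of the filter.

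By distance between profiles, other genes lay closest to groups of the 10. The measure was the root mean square difference of log2(FPKM + 1), each row set to its own mean, over the 8 libraries. Nearest to Asns were Alg2 (0.0477), Tspan31 (0.0483) and Lrp10 (0.0495). Eif2b2 (0.0255), Pskh1 (0.0263) and Dhdds (0.0308) lay nearest to the mean profile of Phgdh, Psat1, Psph, Shmt2 and Mthfd2. Pskh1 (1.14 to 1.90 FPKM) and Dhdds (0.796 to 1.39 FPKM) lie near the level filter, where this scale shrinks differences. Atl3 (0.0380), Siah1a (0.0393) and Sar1a (0.0458) lay nearest to the mean profile of the 4 transporters. Siah1a (1.40 to 2.08 FPKM) and Atl3 (2.11 to 2.83 FPKM) are low as well, and the same limit holds for them. Alg2 had 7.36 FPKM in TCM siKLF4-siFN and 7.37 in TCM siFN, against 13.3 in SFM siKLF4-siFN and 10.9 in SFM siFN. The transporter mean joins genes that went opposite ways in SFM siKLF4-siFN, where it was -0.02.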

How the data were processed

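RNA of B16-F10 cells was sequenced in 8 libraries, 1 per condition. The authors deposited FPKM values for 46477 rows, made with STAR 2.4.1d and Partek against mm10, per the submitters' processing notes; how reads were assigned to genes is not given in the sources used here. Of the rows, 41936 (90.2%) matched a gene name of GENCODE M21 on GRCm38, the assembly of mm10, which gave positions and exon lengths. FPKM were taken as log2(FPKM + 1). Rows with a mean of at least 1 FPKM (6917) were fitted with limma 3.58.1 in R 4.3.3, allowing the variance to follow the mean. Tests were two-sided, and a row was called at a Benjamini-Hochberg adjusted p under 0.05. A fold change on this scale understates that of low genes. The models held medium, siKLF4 and siFN as additive terms, alone (4 residual degrees of freedom) or with 1 interaction of 2 of them (3 residual degrees of freedom), and the departure of the libraries from these terms served as the spread. The fits were also run on simulated data with independent noise in each row and library. Such data hold no departure shared by the rows of a library. The genes and lists were chosen with earlier results of these data known. Named beside the 10 genes are up to 4 genes per pathway list with the smallest interaction p, plus Atf4, Ddit3 and Trib3, and the 3 named genes nearest to each profile. Alternatives changed the pseudocount, filter, scaling, variance trend, rows tested and libraries. Depth was estimated from the steps of low values and limits precision as given beside the levels.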

Additional observations from a re-analysis of the deposited data

Results flagged for a closer look

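These are the named genes whose TCM minus SFM difference changed with siFN past the test (media by siFN interaction, log2(FPKM + 1) scale, limma with Benjamini-Hochberg adjustment). Among the 10 genes it was Slc3a2 (-1.13, adjusted p = 0.0444). Of the other transporters they were Slc6a9 (-1.21, adjusted p = 0.0375), Slc1a5 (-1.37, adjusted p = 0.0385) and Slc6a6 (0.96, adjusted p = 0.0489). The synthesis and folate genes were Pycr1 (-1.56, adjusted p = 0.0375), Cth (-0.79, adjusted p = 0.0480) and Gart (-0.84, adjusted p = 0.0429). Stress genes past the test were Ppp1r15a (-1.92, adjusted p = 0.0375), Trib3 (-1.39, adjusted p = 0.0385) and Hmox1 (-1.80, adjusted p = 0.0375). In the fits that left out 1 library, all 10 of these kept the call without SFM siFN and 9 without TCM siKLF4, the exception being Slc3a2. In the other 6 fits 0 kept it, with adjusted p from 0.0664 to 0.191. The sign was the same in all 8 fits.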

How the results depend on the processing

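Each condition is 1 library, so no pairing by replicate was possible. The models matched libraries by medium and siRNA through their terms. Counts of called rows moved most. For the media by siFN interaction (496 rows) they were 0 with a pseudocount of 0.1, 14 without a filter, 251 with a mean of at least 5 FPKM, 279 after rescaling to TPM, 1003 among protein-coding rows and 0 to 2065 leaving out 1 library. The 2065 came without SFM siFN; without TCM siNT it was 51 and without TCM siKLF4 553, and leaving out any other library gave 0. For the TCM minus SFM difference with siFN (1172 rows) they were 14 without a filter, 626 at a mean of 5, 767 with TPM, and 0 to 2243 leaving out a library. It was 0 on leaving out either TCM library with siFN or SFM siKLF4-siFN, 495 without SFM siNT and 501 with SFM siKLF4 out. For siFN on SFM matrix (479 rows) they were 281 with the smaller pseudocount, 10 without a filter, 259 at a mean of 5, 967 among protein-coding rows and 0 to 1835 leaving out a library. Comparisons with 0 calls gave 8 (media without siFN) and 13 (siFN on TCM matrix) without a filter, 1 among protein-coding rows (media without siFN), and 0 to 1 (siFN over both media) leaving out a library. Slc7a11 passed a size of 1 against SFM siNT and in TCM against SFM with siKLF4-siFN under the smaller pseudocount and TPM, 1 gene in each pair. Besides leaving out libraries, the interaction call of Slc3a2 was lost with a pseudocount of 0.1 (adjusted p = 0.0537), no filter (0.126) and TPM (0.0508). The media calls with siFN were lost for Asns and Phgdh with a pseudocount of 0.1 (0.0548 and 0.0561), no filter (0.126 and 0.129) and TPM (0.0563 for both), and for Slc3a2 with no filter (0.122). Among protein-coding rows Slc7a5 gained the media call with siFN (0.0462) and Slc3a2 that of siFN on SFM matrix (0.0330). Without SFM siFN the interaction call was gained by Asns, Phgdh, Shmt2, Slc7a5 and Slc7a11. The media call with siFN was then gained by Shmt2, Slc7a5 and Slc7a11. That of siFN on SFM matrix was gained by Asns, Phgdh, Slc7a5, Slc3a2 and Slc7a11. Slc7a11 was opposite in sign to the others each time. SFM siKLF4-siFN was then the only SFM library with siFN, so these gains rest on 1 library. Leaving out libraries turned the sign of values that had not passed: media with siFN, Slc38a2 -0.049 to 0.41 and Slc7a11 -0.0021 to 0.75; siFN on SFM matrix, Psat1 -0.034 to 0.19; medium, Slc7a11 -0.19 to 0.22; Mthfd2 with siKLF4 -0.012 to 0.17 and with siFN -0.020 to 0.15; media by siKLF4, Slc7a5 -0.69 to 0.053 and Slc38a2 -0.066 to 0.46; siKLF4 by siFN, Slc7a11 -0.82 to 0.17 and Slc7a5 -0.068 to 0.68. The cause of these moves was not tested.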

Other observations

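A further 4 genes were picked after their values were seen, for their place among the calls of the TCM minus SFM difference with siFN. That comparison called 16.9% of all rows tested. Glul, which joins ammonia to glutamate to make glutamine, rose by 0.96 ± 0.24 (SE) on the log2(FPKM + 1) scale (adjusted p = 0.0420, limma). It had 9.84 FPKM in TCM siKLF4-siFN and 9.13 in TCM siFN, against 5.44 in SFM siKLF4-siFN and 3.50 in SFM siFN. TCM siNT, at 5.24 FPKM, lay with the SFM libraries with siFN, and the remaining 3 libraries had 10.2 to 10.8 FPKM. Asns, which consumes glutamine, fell in the same comparison.

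Slc38a7, a glutamine transporter of the family of Slc38a2, fell by 0.69 ± 0.17 (adjusted p = 0.0410), with 4.02 FPKM in TCM siKLF4-siFN and 3.89 in TCM siFN, against 7.99 in SFM siKLF4-siFN and 6.12 in SFM siFN. Slc1a4, a carrier of alanine, serine and cysteine, fell by 0.47 ± 0.12 (adjusted p = 0.0462). Sesn2, a leucine sensor upstream of mTORC1, fell by 0.51 ± 0.13 (adjusted p = 0.0457). Its levels were 4.91 FPKM in TCM siKLF4-siFN and 4.50 in TCM siFN, against 6.71 in SFM siKLF4-siFN and 7.52 in SFM siFN. These comparisons rest on the same 4 libraries with siFN as those of the 10 genes. Their calls were lost on leaving out either TCM library with siFN or SFM siKLF4-siFN, as given above for all rows.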
